A study of Mus musculus with 9 samples.

Results

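The genes Col1a1, Col1a2, Thy1 and Vim, which are widely used as marks of fibroblast identity, were examined for DNA methylation in cultured mouse fibroblasts and in embryos made from fibroblast nuclei. Each gene was represented by a window on mouse build mm9: chr11:94792000-94817000 for Col1a1, chr6:4450000-4493000 for Col1a2, chr9:43848000-43859000 for Thy1 and chr2:13491000-13507000 for Vim. A CpG was a member when it had at least 5 calls in 6 or more samples. Of 238 CpGs with any call in the windows 104 were members, 55 of them at Col1a1, 8 at Col1a2, 15 at Thy1 and 26 at Vim, against 1151670 of 2200192 CpGs in the whole series. Methylation was read by reduced representation bisulfite sequencing, which cuts DNA with MspI at CCGG, keeps fragments of a chosen size and reads unmethylated cytosines as thymines after bisulfite. The fibroblast group (label TT) held 4 samples of cultures grown from tail tips of adult male mice, with 1 sample sequenced in 2 libraries that were summed. The second group (label NTZy14, here NT embryos) held 4 samples of embryos made by moving such a fibroblast nucleus into an enucleated C57/B6 oocyte and activating it with strontium. In each group 2 samples carried the strain label BDF1-CAST (numbers 1 and 2) and 2 the label X1 (numbers 3 and 4). The sources used here do not give the cross behind the label X1, the age of the embryos or the number pooled per sample. They also do not say that samples of a group came from separate animals or cultures, so a p-value here covers only the scatter of these samples, and that scatter may be technical.

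Type I collagen, the main protein of the extracellular matrix that fibroblasts lay down, is a triple helix of chains encoded by Col1a1 and Col1a2. Thy1 encodes the surface glycoprotein CD90, used to sort fibroblasts and also found on thymocytes and neurons, and Vim encodes vimentin, the intermediate filament protein of mesenchymal cells. CpG-rich starts of active genes are usually free of methylation, whereas CpGs inside and between genes are usually methylated in somatic cells. After transfer into an enucleated egg, a somatic nucleus is exposed to oocyte factors that reset its programme, and its DNA methylation is partly rewritten. Expression was not measured, so the activity of the 4 genes in these cells is not known from these data.

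The RefSeq sequences of the 250 bases before the start of Col1a2 and of Vim are shown because most members of these 2 genes lie at that start. Capitals mark the CpGs that were members. The sequences are from build GRCm38.p6, plus strand, at chr6:4505368-4505617 and chr2:13574061-13574310.
Col1a2: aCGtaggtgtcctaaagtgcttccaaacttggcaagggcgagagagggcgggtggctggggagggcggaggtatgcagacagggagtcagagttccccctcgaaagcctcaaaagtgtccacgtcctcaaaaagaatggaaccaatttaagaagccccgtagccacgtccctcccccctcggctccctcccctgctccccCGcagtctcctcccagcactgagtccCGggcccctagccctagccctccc
Vim: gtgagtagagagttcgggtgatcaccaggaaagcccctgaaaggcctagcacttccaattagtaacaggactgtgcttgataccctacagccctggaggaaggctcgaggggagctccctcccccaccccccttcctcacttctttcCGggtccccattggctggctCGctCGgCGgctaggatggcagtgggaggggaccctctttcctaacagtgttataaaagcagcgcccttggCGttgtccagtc

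The mm9 positions were tied to these sequences by the spacing of CpGs alone. In the 300 bases around the Col1a2 start all 12 positions with a call fell on a CG of the sequence, and around the Vim start all 9 did, while the next best placement in either window matched 2 CpGs. Distances below count from the first transcribed base as 0. The Col1a2 stretch of 300 bases holds 13 CGs and that of Vim 11, against a median of 7 over all 32851 RefSeq promoters. None of the motif matches given here overlap. Searched on both strands, the MspI site CCGG stood at -25 and 29 in Col1a2 and at -104 and 16 in Vim, and 52.8% of all promoters hold it. The CCAAT box, letters CCAAT, stood at -109 and 0 in Col1a2 and at -196 and -94 in Vim (37.4% of promoters). The letters TATAAA of the TATA box stood at -32 in Vim and were not found in Col1a2 (13.6% of promoters), and the GC box GGGCGG was found in Col1a2 at -205 and -188 and not in Vim (35.7%). Col1a1 and Thy1 are given by mm9 positions only.

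At the level of whole loci, the genes differed widely from each other and none passed the test between fibroblasts and NT embryos. The level of a locus is the share of methylated calls among all calls at its members. The smallest two-sided exact permutation p that 4 against 4 samples allow is 0.0286, and the 4 loci gave 0.629, 0.543, 0.143 and 0.743. Libraries held 35442175 to 41466097 calls in fibroblasts and 25239364 to 30396273 in NT embryos. They covered 1746590 to 1886972 CpGs in BDF1-CAST and 1376884 to 1596888 in X1.

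**Figure D1:**
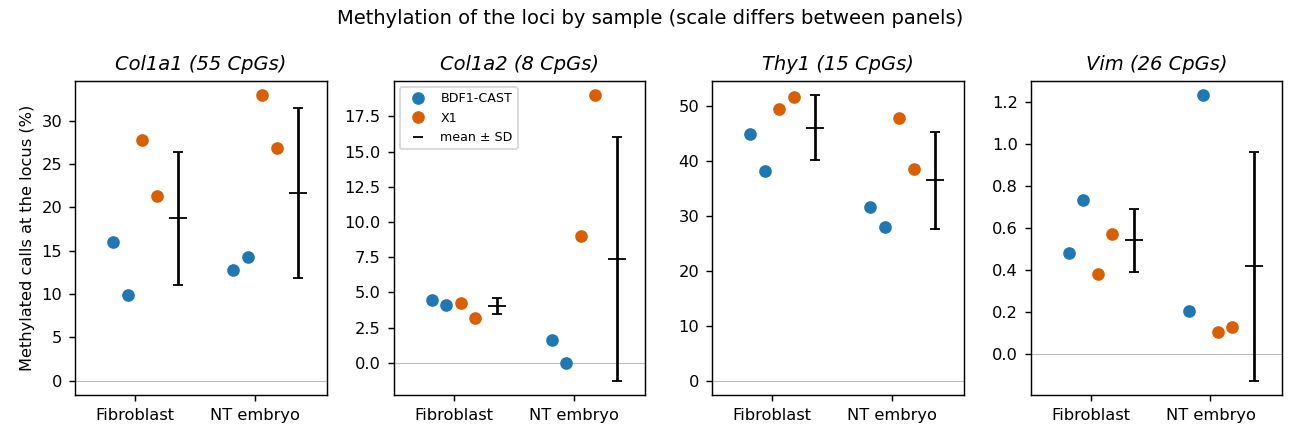
Percentage of methylated calls at each locus (vertical axis, scale differing between panels) in the fibroblast and NT embryo samples, with points coloured by strain label and bars giving mean ± SD of 4 samples. Col1a1 and Thy1 lie higher in X1 than in BDF1-CAST in both stages, Thy1 is the most methylated locus, and Vim stays under 1.3% in each sample.

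Vim was unmethylated in every sample. Its 26 members run from -103 to 595 around the start, and the locus was at 0.483, 0.731, 0.380 and 0.569% in fibroblast samples 1 to 4 and at 0.202, 1.23, 0.104 and 0.130% in NT embryo samples 1 to 4, on 487 to 1865 calls. The groups overlapped, with means of 0.540% ± 0.149 and 0.417% ± 0.545 (SD, n = 4, two-sided exact permutation p = 0.743). Leaving out NT embryo sample 2 moved the difference to -0.395 points, with an exact permutation p of 0.0286. The 5 CpGs of the tile chr2:13496100-13496199, inside the gene at 163 and beyond, stood at 0.223, 0.439, 0 and 1.01% in fibroblasts and at 0, 0, 0 and 0.893% in NT embryos. The 5 CpGs of the next tile, chr2:13496200-13496299, were at 0.658, 2.29, 0.746 and 1.28% in fibroblasts and at 0.524, 6.45, 0 and 0% in NT embryos. In the tile chr2:13496000-13496099 only fibroblast sample 1 had methylated calls, at 1.10%, and the limits that 0 methylated calls allow in the other samples were 1.88 to 5.77%. The highest single CpG, at 344, reached 33.3% in NT embryo sample 2, on 9 calls, and 15.4% in fibroblast sample 2, on 13.

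Deeper in the Vim window the coverage rule left out a group of 5 CpGs, at 5137 to 5185 from the start. They were methylated in fibroblasts, at 65.1, 68.4, 83.7 and 80.8% on 76 to 129 calls, and stood at 9.38% in NT embryo sample 1 on 32 calls. The other 3 NT embryo samples had only 5 or 6 calls each there, at 0, 50 and 50%. With every CpG with a call included, the Vim locus was 6.11 points lower in NT embryos (exact permutation p = 0.0286), a value that mixes the start with these CpGs at different depths, since the left-out CpGs of the window held 547 calls in fibroblasts and 106 in NT embryos.

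The start of Col1a2 was also unmethylated, while CpGs inside the gene were not. At the 6 members within 1000 bp of the start 11 of 1395 calls were methylated. The 4 fibroblast samples were at 1.26, 3.42, 0 and 0% and the 4 NT embryo samples at 0.877, 0, 0 and 0%, and the limits for the samples at 0 ran from 1.37 to 5.00%. In the tile chr6:4455600-4455699, just around the start, no sample had a methylated call, which allows up to 4.00 to 20% per sample. In the tile before it, chr6:4455500-4455599, the fibroblasts were at 2.27, 7.94, 0 and 0% and the NT embryos at 2.04, 0, 0 and 0%.

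The 2 members inside Col1a2 lie at 25637 and 25700 from the start of a gene that spans 35926 bp in GRCm38.p6. Together they were at 18.3, 6.38, 32.0 and 21.1% in fibroblasts. In NT embryos they were at 12.5, 0, 84.6 and 78.9% on 8 to 26 calls, where the 0 allows up to 15.8%. The X1 embryos were thus high and the BDF1-CAST embryos low at these CpGs, with few calls and no test, since neither tile had 10 calls in every sample. Without them the start members were at 1.09% in fibroblasts and 0.209% in NT embryos over pooled calls. Over its 8 members Col1a2 was at 4.03% ± 0.554 in fibroblasts and 7.40% ± 8.65 in NT embryos (SD, n = 4, two-sided exact permutation p = 0.543). The fibroblast samples were at 4.49, 4.15, 4.26 and 3.23% and the NT embryo samples at 1.64, 0, 8.98 and 18.99%. NT embryo sample 2 had 0 of 105 calls methylated, which allows up to 2.86%. Without NT embryo sample 4 the difference turned from 3.37 to -0.489 points, and with members at 5 or more calls in all samples it was -1.18. With every CpG with a call included it was 0.0216 points. The 25 CpGs that the coverage rule left out, at -1545 to 33750 from the start, were at 17.5, 10.8, 24.4 and 28.2% in fibroblasts. In NT embryos they were at 3.37, 6.84, 54.5 and 0%, on 267, 117, 11 and 4 calls.

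**Figure D2:**
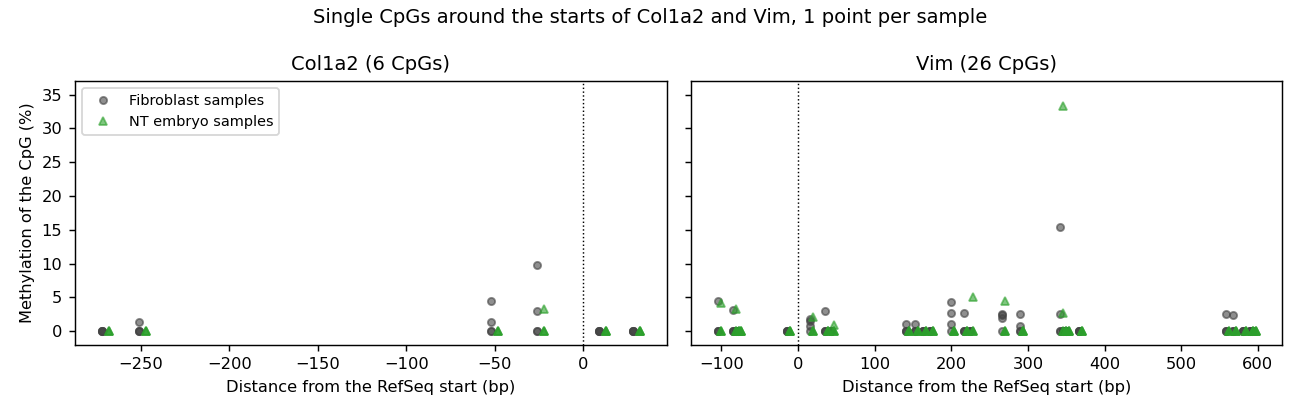
Methylation of the 6 Col1a2 members within 1000 bp of the start and the 26 Vim members (vertical axis, percent) against distance in bp from the RefSeq start, with 1 point per sample, circles for fibroblasts and triangles for NT embryos. Dotted lines mark the start, and points of the stages are set slightly apart. The 2 Col1a2 members deeper in the gene are not drawn. Most points drawn lie at 0, and the highest is the Vim CpG at 344, at 33.3% in 1 NT embryo sample on 9 calls.

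Col1a1 changed from methylated sequence at the edge of its window through an unmethylated stretch to intermediate levels. The first tile, chr11:94792200-94792299 with 1 CpG, was at 64.6, 42.6, 80.6 and 73.5% in fibroblasts and at 20.4, 59.6, 87.0 and 91.1% in NT embryos. Of the 5 tiles at 6 to 8 kb into the window, with 9 members, none exceeded 2.40% in the fibroblast mean or 0.833% in the NT embryo mean. The 22 tiles at 12 kb or more had fibroblast means of 10.6 to 35.9% and NT embryo means of 0 to 71.2%. In the unmethylated stretch, the 3 CpGs of chr11:94798700-94798799 were at 2.29, 0, 3.13 and 0% in fibroblasts and at 3.33, 0, 0 and 0% in NT embryos.

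Whole-locus levels of Col1a1 did not pass the test between the stages. The fibroblasts were at 16.0, 9.83, 27.8 and 21.3% and the NT embryos at 12.7, 14.3, 32.9 and 26.9%, on 1162 to 4010 calls. The samples of the stages interleaved, at 18.7% ± 7.63 and 21.7% ± 9.81 (SD, n = 4, two-sided exact permutation p = 0.629). Without NT embryo sample 3 the difference went from 2.97 to -0.774 points, without fibroblast sample 2 it was 0.0109, and without fibroblast sample 3 it was 5.99. With the members at 10 or more calls in all samples weighted equally it was 7.67.

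Tiles of 100 bp were tested over the whole genome for an effect of stage with a quasi-binomial model whose dispersion was moderated by limma (the tile model), and a call needed a Benjamini-Hochberg adjusted p under 0.05 and a difference of 20 points. None of the 28 tiles tested in the 4 windows was called, against 3.56% of all 271481 tiles (3.43% lower and 0.134% higher in NT embryos). A tile with a fibroblast mean under 20% cannot be called lower, as it cannot fall by 20 points. This held for 16 of the 28 tiles (57.1%), against 36.9% of all tiles, so the shares called are not alike in what they could show. An unadjusted p under 0.05 was found for 5 of the 28, against 26.2% of all tiles, and the NT embryo samples all lay below the fibroblast samples in 0 of the 28, against 11.6%. Limma on arcsine square root levels likewise called 0, against 2.17% of all tiles, with 3 at an unadjusted p under 0.05, against 22.7%. The other 29 of the 57 tiles with members had fewer than 10 calls in some sample and were not tested.

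In Col1a1 the smallest stage p belonged to the 2 CpGs of chr11:94802600-94802699. This tile was at 7.97, 3.25, 2.20 and 0% in fibroblasts and at 13.6, 9.09, 20.7 and 14.3% in NT embryos. Each NT embryo sample lay above each fibroblast sample, which 0.898% of all tiles show in that direction, and the change of 11.1 points was not called (tile model, adjusted p = 0.0992). The adjoining 3 CpGs of chr11:94802700-94802799 were at 4.78, 7.98, 17.4 and 4.17% and at 9.80, 4.50, 25.7 and 15.2%, with overlapping groups (adjusted p = 0.399). In the other direction, the CpG of chr11:94805600-94805699 was at 16.0, 13.4, 35.6 and 29.5% in fibroblasts and at 0, 1.59, 0 and 36.8% in NT embryos (adjusted p = 0.159). NT embryo sample 4 alone was high among the embryos there, on 19 calls, and without it the change was -23.1 points and was called (adjusted p = 0.0311, against 0.144 to 0.343 under the other alternatives).

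Among the tested tiles of the windows the stage means lay farthest apart at 1 CpG of Col1a1, in chr11:94806900-94806999, named here after its values had been seen. It was at 21.4, 15.8, 47.1 and 12% in fibroblasts and at 91.4, 25.6, 67.9 and 100% in NT embryos. The means of 24.1% ± 15.8 and 71.2% ± 33.3 were not called apart (SD, n = 4, tile model, adjusted p = 0.179). NT embryo sample 4 had 12 calls at this CpG, the fewest of the 8.

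**Figure D3:**
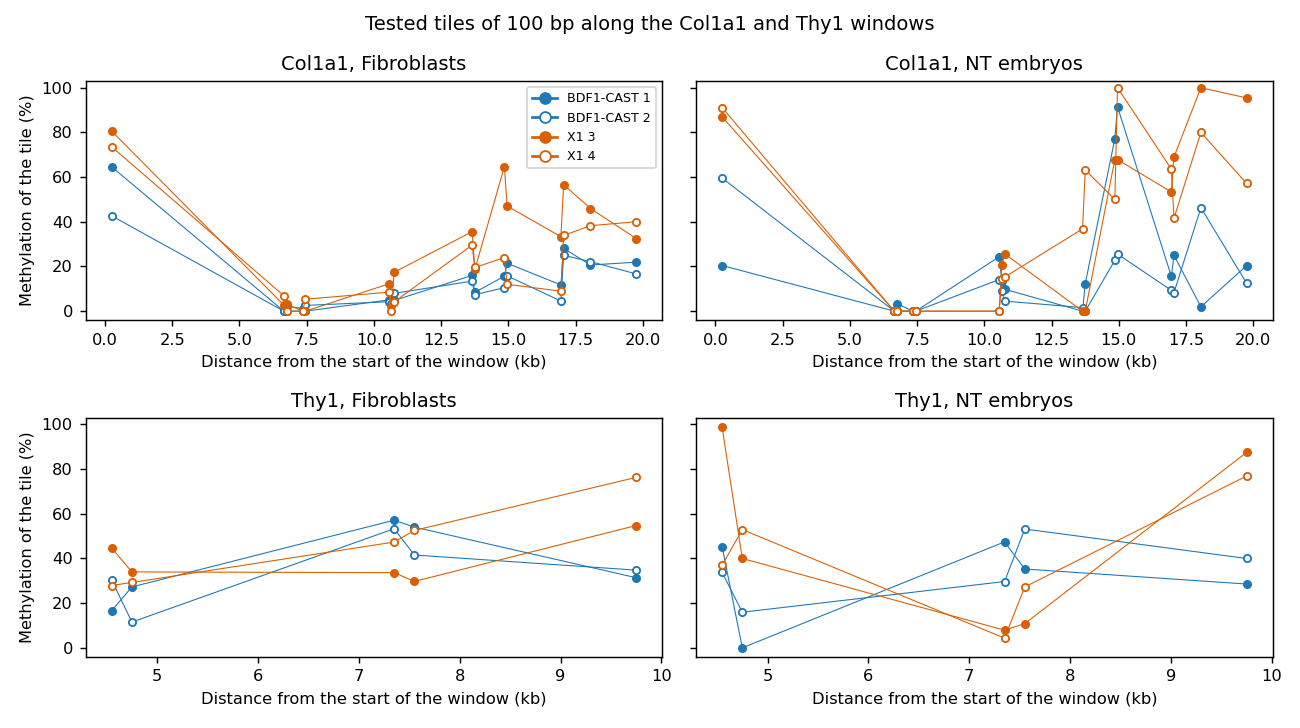
Methylation of tested tiles of 100 bp (vertical axis, percent) against distance in kb from the start of the Col1a1 and Thy1 windows, with a line for each sample, coloured by strain label and with filled and open markers for its 2 samples. At 6 to 8 kb into the Col1a1 window all lines lie under 10%, and beyond 12 kb the NT embryo samples spread from 0 to 100%.

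Thy1 was the most methylated of the 4 loci and the only one whose mean was lower in NT embryos by more than 5 points. It was at 45.0, 38.2, 49.5 and 51.6% in fibroblasts and at 31.6, 27.9, 47.9 and 38.6% in NT embryos, on 280 to 900 calls. NT embryo sample 3 lay above fibroblast samples 1 and 2 and NT embryo sample 4 above fibroblast sample 2, all across the strain labels. Within each label both embryo samples lay below both fibroblast samples. The difference of -9.57 points between 46.1% ± 5.92 and 36.5% ± 8.81 did not pass the test (SD, n = 4, two-sided exact permutation p = 0.143). With stage labels permuted only within each strain, a test added after these values had been seen, the exact p was 0.0556, the smallest that its 36 assignments allow. Within BDF1-CAST the stages differed by -11.9 points, and within X1 by -7.27. With every CpG with a call included, the Thy1 difference was -7.61 points (exact permutation p = 0.371). With CpGs at 5 or more calls in all samples it was -11.9 points (exact permutation p = 0.0857). The 36 CpGs that the coverage rule left out were at 7.03, 7.56, 55.6 and 31.3% in fibroblasts, on 9 to 313 calls. In NT embryos they were at 17.9, 3.03, 50 and 0%, on 2 to 198 calls.

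The lower level of the Thy1 locus was not shared by all its tiles. Of the 5 tested Thy1 tiles 2 had the lower mean in NT embryos and 3 the higher. Among the latter, the CpG of chr9:43852500-43852599 was at 29.9% ± 11.5 in fibroblasts and 53.7% ± 30.4 in NT embryos (SD, n = 4, tile model, adjusted p = 0.272). Of the tested Thy1 tiles the smallest stage p was found in the middle of the window. The 5 CpGs of chr9:43855300-43855399 were at 57.1, 53.3, 33.7 and 47.4% in fibroblasts and at 47.4, 29.7, 7.92 and 4.35% in NT embryos. Both X1 embryo samples were below 10%, NT embryo sample 2 also lay below each fibroblast sample, and NT embryo sample 1 lay among them. The means were 47.9% ± 10.3 and 22.3% ± 20.1 (SD, n = 4, tile model, adjusted p = 0.0896, unadjusted p = 0.00881). Under the alternatives with tiles of 100 bp the adjusted p ran from 0.0653 to 0.242. A nearby tile, chr9:43855500-43855599 with 2 CpGs, was at 54.1, 41.6, 29.7 and 52.5% in fibroblasts and at 35.3, 53.2, 10.8 and 27.3% in NT embryos (adjusted p = 0.202).

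At this place 1 wider tile was called. The tile of 1000 bp chr9:43855000-43855999, with 7 CpGs, was at 55.8, 48.7, 32.0 and 50% in fibroblasts and at 41.1, 39.6, 9.50 and 15.6% in NT embryos, a change of -20.2 points (tile model, adjusted p = 0.0362). It was the only one of the 21 tiles of that size in the windows called for stage, where 12.3% of all such tiles were called lower. The adjoining tile chr9:43856000-43856999 was at 63.4% ± 23.4 in fibroblasts and 45.0% ± 35.9 in NT embryos (SD, n = 4). Its change of -18.5 points fell short of the 20 that a call needed (tile model, adjusted p = 0.0152). With 5 calls per tile allowed, the CpG of chr9:43856400-43856499 was called lower, as were 4.15% of all tiles under that rule. It was at 44.6, 51.5, 88.4 and 73.9% in fibroblasts and at 0, 0, 33.3 and 100% in NT embryos, the last on 7 calls.

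**Figure D4:**
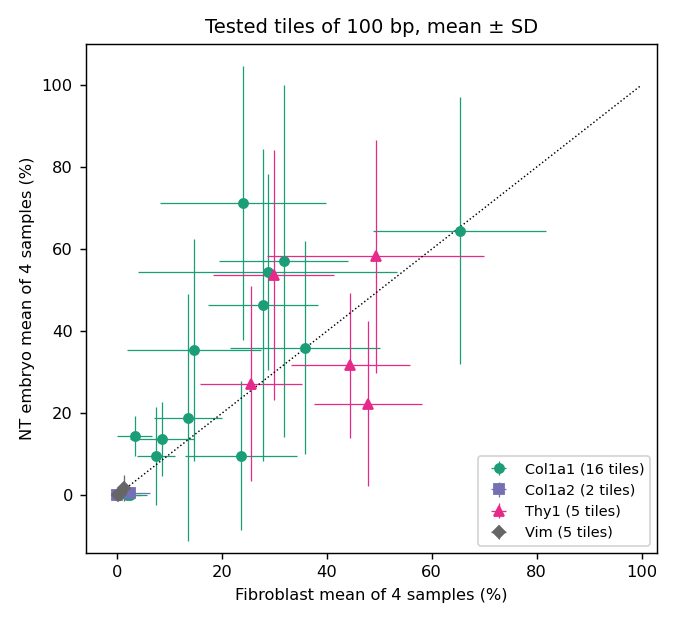
Mean methylation of each tested tile of 100 bp in NT embryos (vertical axis, percent) against fibroblasts (horizontal axis, percent), with bars giving the SD of 4 samples and the dotted line marking equal levels. The Vim and Col1a2 tiles sit under 3% on both axes, and the vertical bars of Col1a1 and Thy1 tiles are mostly longer than the horizontal ones.

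Mean methylation at Col1a1 was higher in samples with the label X1 than in samples labelled BDF1-CAST, in fibroblasts and in NT embryos. Over both stages the Col1a1 locus was at 13.2% ± 2.62 in BDF1-CAST and 27.2% ± 4.77 in X1 (SD, n = 4), and the strains were 11.6 points apart among fibroblasts and 16.4 among NT embryos. Of the 35 Col1a1 tiles with members 30 had the higher mean in X1, and all 22 tiles at 12 kb or more did. Among the 16 tested Col1a1 tiles it was 13, against 60.9% of all tested tiles. Neighbouring CpGs share reads, so these tiles are not independent. Strain cannot be told apart from the lower number of CpGs covered in X1 libraries.

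No tile of the 4 windows was called for strain (0 of 28, against 0.0111% of all tiles), while 9 had an unadjusted p under 0.05, against 14.4%, and limma likewise called 0, against 0.00184%, and put 9 below that unadjusted p, against 13.6%. In 3 of the 16 Col1a1 tiles and 2 of the 5 Thy1 tiles each X1 sample lay above each BDF1-CAST sample, which 3.96% of all tiles show. The reverse was seen in 0 of the 28, against 1.7% of all tiles. Taken within each stage, both X1 samples lay above both BDF1-CAST samples in 4 Col1a1 and 2 Thy1 tiles, against 8.81% of all tiles, and below them in 1 Thy1 tile, against 2.94%. Of the tiles with X1 higher, the tile chr11:94809000-94809099 was at 28.1, 25.0, 25.0 and 8.33% in the BDF1-CAST samples, fibroblasts first, and at 56.6, 33.9, 69.0 and 41.7% in X1 (tile model, adjusted p = 0.272).

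The Thy1 locus was also higher in X1, at 46.9% ± 5.74 against 35.7% ± 7.54 in BDF1-CAST (SD, n = 4). The strains were 8.92 points apart there among fibroblasts and 13.5 among NT embryos. Of the 9 Thy1 tiles with members 7 had the higher mean in X1. Among the 5 tested it was 3, against 60.9% of all tested tiles. Single tiles of the window differed in opposite directions. The 2 CpGs of chr9:43857700-43857799 were at 31.4 and 34.8% in BDF1-CAST and 54.8 and 76.3% in X1 fibroblasts, and at 28.6 and 40% against 87.5 and 76.9% in NT embryos (strain term, adjusted p = 0.175). In the tile of 1000 bp chr9:43856000-43856999, with 3 CpGs, BDF1-CAST samples averaged 28.6% ± 16.8 and X1 samples 79.8% ± 6.10 (SD, n = 4, tile model, adjusted p = 0.0167), and 0.113% of all tiles of that size were called higher in X1. The tile chr9:43855300-43855399, less than 3 kb away, was higher in BDF1-CAST, at 46.9% ± 12.1 against 23.3% ± 20.7 (adjusted p = 0.269). No tile was called for a different change of stage between the strains in the same model (0 of 28, against 0% of all tiles), with 3 at an unadjusted p under 0.05, against 8.15%. With limma the calls were also 0, against 0.000737%, and 2 tiles had such an unadjusted p, against 9.24%.

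NT embryo samples were more scattered than fibroblast samples at intermediate CpGs. Among tiles with a mean of 10 to 90% over the 8 samples, the 10 Col1a1 tiles had a median SD of 12.6 points among fibroblasts and 28.6 among NT embryos, and the 5 Thy1 tiles one of 11.3 and 23.8. Over all 172412 such tiles it was 6.05 and 11.3. The NT embryo SD was the larger in 14 of these 15 tiles, against 79.6% of all such tiles. For these 15 tiles the median depth was 70 calls in a fibroblast sample and 57.5 in an NT embryo sample. Each SD spans both strain labels, and at the Col1a1 locus these were 11.6 points apart in fibroblasts and 16.4 in NT embryos. The parts of depth and strain in this spread were not tested.

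Single embryo samples held more CpGs near 0 or 100%, most of them near 0. Of the 19 members with 10 or more calls in all samples and a mean of 10 to 90%, 2, 2, 0 and 2 stood at 0 to 5% or 95 to 100% in fibroblast samples 1 to 4, and 4, 4, 7 and 8 in NT embryo samples 1 to 4. At 95 to 100% these included none in the fibroblasts and 0, 0, 1 and 2 in the NT embryos. As shares these were 0 to 10.5% and 21.1 to 42.1%, against 5.67 to 12.2% and 8.48 to 19.7% over all 179972 such CpGs. The median depth at these members was 84, 41, 37 and 41 calls in the fibroblast samples and 41, 44, 35 and 19 in the NT embryo samples, so the sample with the largest share was also the shallowest. The part of depth in these shares was not tested. Calls without molecular identifiers are not independent molecules.

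Compared with all tested tiles, the tested tiles of the 4 windows were poor in methylated sequence in the fibroblasts. Of the 28 tested tiles 1 was at 60% or more in the fibroblast mean and 16 were under 20%, against 54.0% and 36.9% of all tiles, and the median tile was at 11.0% against 69.6%. The median change between stages was 0.0551 points, against -2.08 over all tiles. By the authors' CpG density, the mean number of CpGs within 50 bp, the 15 tiles at 3 to under 6 had a median fibroblast level of 8.58%, against 74.3% for all tiles of that density. The 9 tiles under 3 had a median of 25.5% against 82.0%. The 4 tiles at 6 and over had a median of 0.830% against 1.22%, and the 3 of them at Vim stayed under 2% in both stages. No count over these tiles was tested. The 29 tiles of the windows with too few calls are outside these counts, with fibroblast means of 0 to 64.6%. So are the 5 left-out Vim CpGs deeper in the window, which were methylated in fibroblasts.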

How the data were processed

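The authors deposited, for each of 9 libraries, counts of calls seen and counts of methylated calls per CpG, as the deposited description states. Positions are on mm9 per the submitters' processing notes; the sources used here do not give whether they count from 0 or 1, or the aligner and caller. The CpG density score is the authors' deposited value; the 26 methylation columns of that table were not used. The resequenced fibroblast library 1a was summed with library 1, leaving 8 samples.

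Locus levels were compared by two-sided exact permutation tests. Tiles of 100 bp with at least 10 calls in every sample, built genome-wide from CpGs with at least 5 calls in 6 or more samples, were fitted with a quasi-binomial logistic model with stage and strain, dispersion moderated by squeezeVar of limma 3.58.1 (R 4.3.3) with a minimum of 1, and adjusted by Benjamini-Hochberg over all tiles. The model was also run on simulated data without a strain difference, with levels lowered only in tiles where most calls were methylated. That run does not cover tiles with few methylated calls, such as most tested tiles of the windows. Other steps used Python 3.11.15, numpy 2.4.6, pandas 2.3.3 and scipy 1.17.1. The limit given for a share of 0 is 3 calls over the total, for counting error only. Not every share of 0 is printed with its limit. Windows, tests and lists were chosen with earlier results of these data known. In each window the tiles named are those called, those with the smallest stage p up to 2, and the 2 with the most members; others are named after their values were seen. Neither a mm9 genome nor other fibroblast genes were used here.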

Additional observations from a re-analysis of the deposited data

Results flagged for a closer look

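Among 30 groups of 4 samples looked at (the 4 loci and 11 named tiles in each stage), 7 held a sample set far from the others, where chance at 1 in 20 gives 1.5. In each of these 7 the other samples lay at 0 to 1.59%, so that rate is no reference for them. Where the others had no methylated call, any methylated call in 1 sample sets the flag. At the Vim locus NT embryo sample 2 stood at 1.23%, while the other NT embryo samples ranged from 0.104 to 0.202%. In the Vim tile at 13496200 it stood at 6.45% and the rest at 0 to 0.524%. In the Vim tile at 13496000 fibroblast sample 1 was at 1.10% and in the tile at 13496100 NT embryo sample 4 stood at 0.893% on 112 calls, and the rest of either group had no methylated call. In the Col1a1 tile at 94798700 NT embryo sample 1 reached 3.33%, on 30 calls, and in the Col1a2 tile at 4455500 it was at 2.04%, on 49 calls, the rest being at 0%. In the Col1a1 tile at 94805600 NT embryo sample 4 reached 36.8%, on 19 calls, and the rest 0 to 1.59%.

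At the Col1a2 locus both BDF1-CAST embryo samples were lower than the fibroblast mean of that strain, and both X1 embryo samples were higher than theirs. The changes were -3.50 and 10.2 points, a difference of 13.7 points, which was not tested. These levels mix the start members, at 0% in each X1 sample, with the 2 members deeper in the gene, at uneven depth. In the BDF1-CAST embryo samples 1 and 2 the deeper members gave 8 of 122 and 19 of 105 calls. In the X1 embryo samples 3 and 4 they gave 26 of 245 and 19 of 79 calls.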

How the results depend on the processing

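Locus differences kept their direction and stayed short of the test in all but these cases. Col1a1 turned to -0.774 points without NT embryo sample 3, and Col1a2 to -0.489 without NT embryo sample 4. Col1a2 turned to -2.37 points with CpGs at 10 or more calls in all samples weighted equally (1 CpG was left) and to -1.18 with CpGs at 5 or more calls in all samples. Vim passed the exact permutation test at -6.11 points with all CpGs with a call, and at -0.395 without NT embryo sample 2. An exact permutation of stage labels within strain, added after seeing the data, gave p = 0.333, 0.444, 0.0556 and 0.722 for Col1a1, Col1a2, Thy1 and Vim. Leaving out single samples gave -0.774 to 5.99 points for Col1a1, -0.489 to 5.84 for Col1a2, -13.4 to -6.71 for Thy1 and -0.395 to -0.0194 for Vim. The count of tiles called for stage was 1 at 5 calls per tile (14630 over the whole genome) and 1 with tiles of 1000 bp, and 0 to 1 without single samples; that for strain was 1 with tiles of 1000 bp. Over the whole genome the stage calls went from 9671 to 0 without fibroblast sample 1 or without fibroblast sample 2, to 1052 and 1285 without fibroblast samples 3 and 4, to 4018 and 4451 without NT embryo samples 1 and 2, to 4394 at 20 calls per tile, to 5899 with limma and to 19812 of the wider tiles. Leaving out single samples also turned the sign at 3 named tiles, with ranges of -1.35 to 0.0700 points at 94798700, -0.417 to 0.00261 at 13496100 and -1.07 to 1.08 at 13496200.

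The sample numbers were tried as a replicate block. Deviations of same-numbered samples from the stage mean correlated at 0.0335 to 0.162, under 0.1 in 3 of 4 pairs. Samples of the same strain with other numbers correlated at 0.0353 to 0.136. With strain also removed, the 2 samples of a strain and stage mirror each other. These correlations therefore cannot decide whether the numbers pair the samples, and the main tests did not pair them. The block gave the same mean differences (Thy1 -9.57 points, exact sign-flip p = 0.125, the smallest that 4 pairs allow) and 0 tiles called in the windows or elsewhere. Few calls limit these loci: 43 of the 238 CpGs had 10 or more calls in all samples.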
